A study of Homo sapiens with 16 samples.

Results

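The enzymes that build nicotinamide adenine dinucleotide (NAD) were followed as a family of 9 genes through RNA sequencing of HCT116 cells, a long-established line from a human colon carcinoma. The 9 genes are NMRK1, NAMPT, NAPRT1, QPRT, NMNAT1, NMNAT3, NADSYN1, NADK and NNMT, matched by gene symbol among 63653 genes in the deposited files. All 9 were found, 7 of them passed the filter for the test across genes, and QPRT and NNMT were too low. The family was put together after NMRK1 had been seen to be higher with an siRNA in these same data, so its values in that comparison are given as a description with no p.

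Gene expression was measured in total RNA of 4 groups. Inhibitor cells received 0.5 µM BIX 01294 trihydrochloride hydrate, a small molecule that inhibits the histone methyltransferase G9a (gene EHMT2), for 72 h. Inhibitor control cells are their controls. The siRNA cells received 10 nM of a small interfering RNA against G9a by lipid transfection for 72 h, and siRNA control cells are their controls. The sources used here do not say how either kind of control was handled. Each group has 2 libraries, and each library was sequenced in 2 runs that were averaged and counted once, so n = 2 throughout. According to the submitters' design note there are 2 biological replicates, and 2 technical ones, but which number in the labels marks which is not said, and no label ties a library to its own culture. The p-values therefore reflect just the scatter among these libraries, which may be technical.

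NAD is the carrier of electrons in glycolysis and respiration and is also used up by signalling and DNA repair enzymes, so cells make it continually. NAMPT turns nicotinamide into nicotinamide mononucleotide and is the rate-limiting step of salvage in most mammalian cells, while NMRK1 reaches the same mononucleotide by adding phosphate to the vitamin nicotinamide riboside. NAPRT1 starts from nicotinic acid, and QPRT from quinolinic acid, the end of the tryptophan route. NMNAT1 in the nucleus and NMNAT3 in mitochondria join the mononucleotides to an adenylyl group, NADSYN1 amidates the nicotinic acid form to NAD, and NADK adds a phosphate to make NADP. NNMT methylates nicotinamide and so takes it out of salvage.

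The deposited values are FPKM, fragments per kilobase of transcript and per 1000000 mapped fragments, from Cufflinks. Levels below are FPKM divided by a median-of-ratios factor per library, called scaled FPKM, and are already per length, so they can be compared between genes. Differences are of mean log2(scaled FPKM + 1), first group minus second, ± their standard error, and understate the change of low genes. They come from limma fitted to all 12846 tested genes in the 4 groups at once, and adjusted p means Benjamini-Hochberg adjustment over these genes, with a threshold of 0.05.

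The check of the targeted gene went the way of the labels. EHMT2 stood at 4.68 and 4.54 scaled FPKM in siRNA cells and at 15.9 and 17.8 scaled FPKM in siRNA control cells, a log2 difference of -1.67 ± 0.09 (limma adjusted p = 0.000268). Both inhibitor control libraries differed from the rest across the transcriptome. Pearson's r of log2 levels over genes was 0.993 within this pair, 0.957 to 0.974 between the pair and the remaining 6 libraries, and 0.985 to 0.995 among those 6. HNRNPA2B1, an RNA-binding protein gene, was at 320 and 263 scaled FPKM in them and between 37.1 and 57.8 in the others. For this reason inhibitor cells are also set against siRNA control cells below. That group has a limit of its own, since siRNA control replicate 2 was the shallowest library. Its r was 0.985 to 0.988 with the inhibitor and siRNA libraries, and 0.992 with siRNA control replicate 1. Of 12 colon epithelial markers, CEACAM5 was listed at 0 in every library and VIL1, CDX1 and LGALS4 stayed under 0.5 scaled FPKM. The summed level of the 12 was 702 to 720 in inhibitor, 762 to 769 in inhibitor control, 644 to 659 in siRNA and 642 to 643 in siRNA control libraries. Of 12 fibroblast markers LUM and FAP were listed at 0, 9 stayed under 0.5, and the sum was 3.50 to 3.71 in inhibitor, 6.29 to 7.56 in inhibitor control, 2.88 to 4.73 in siRNA and 3.33 to 3.83 in siRNA control libraries. The single epithelial markers did not move together. KRT8 averaged 256 scaled FPKM in inhibitor control cells and 155 to 192 in the other groups. EPCAM and KRT18 also averaged highest in inhibitor control cells. KRT19 averaged lowest in them, at 209 against 231 to 248. The fibroblast sum rested mostly on FBLN1, COL1A1 and PDGFRB. FBLN1 and COL1A1 averaged highest in inhibitor control cells, while PDGFRB was at 0.385 and 1.83 in those libraries, its lowest and highest values. The part of these differences in the results below was not tested. In a bulk sample, fewer cells of a type and less RNA per cell cannot be told apart.

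The family spanned a wide range of levels. NAMPT was the most abundant member with a mean of 30.7 scaled FPKM over the 8 libraries, above 82.5% of the tested genes, followed by NAPRT1 at 29.8 and NADK at 25.5. NADSYN1 at 9.87 and NMNAT1 at 7.67 lay in the middle of the tested genes, above 54.1% and 47% of them. NMRK1 at 1.91 and NMNAT3 at 1.75 were low, above 13.6% and 11.6% of the tested genes. QPRT averaged 0.388, and NNMT was listed at 0 in all 16 runs. NAMPT and NAPRT1 changed order between libraries, and so did NMRK1 and NMNAT3, so neither pair has a fixed order. Every library thus carried abundant message for the nicotinamide and nicotinic acid entries, little for the nicotinamide riboside entry, and almost none for the quinolinic acid entry.

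The RefSeq promoter table holds windows for 6 of the 9 genes (build GRCh38.p14), and NMRK1, NAPRT1 and NNMT have none. The 250 bases before the start site are printed for the most abundant gene and the least abundant gene with a window, on the strand of the gene, with each CG dinucleotide in capitals. The letters CG read the same on both strands. The NAMPT window lies at chr7:106284984-106285233 on the minus strand, and the QPRT window at chr16:29678758-29679007 on the plus strand. All gene loci given below are in build hg19, so their positions cannot be set against those of these windows.
NAMPT: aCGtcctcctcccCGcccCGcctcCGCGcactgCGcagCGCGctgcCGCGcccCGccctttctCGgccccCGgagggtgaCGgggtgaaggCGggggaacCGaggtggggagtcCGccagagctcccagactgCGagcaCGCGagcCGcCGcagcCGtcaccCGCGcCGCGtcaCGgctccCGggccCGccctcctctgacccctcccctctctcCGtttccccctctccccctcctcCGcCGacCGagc
QPRT: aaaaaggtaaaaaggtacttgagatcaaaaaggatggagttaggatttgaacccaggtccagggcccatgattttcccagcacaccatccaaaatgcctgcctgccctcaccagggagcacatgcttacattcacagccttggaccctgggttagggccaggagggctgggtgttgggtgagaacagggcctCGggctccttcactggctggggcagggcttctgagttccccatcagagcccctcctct
The NAMPT window holds 34 CG, as many as or more than which are found in 6.84% of the 35097 windows of the table, where the median is 11. The QPRT window holds 1 CG, and 93.9% of all windows hold at least that many. A second start of QPRT has 2 CG in its window, NMNAT1 has 21 and NADSYN1 has 29. The windows of the 3 NADK starts hold 6, 29 and 5, and those of the 2 NMNAT3 starts 14 and 8. These are counts of letters and say nothing about methylation in these cells.

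**Figure D1:**
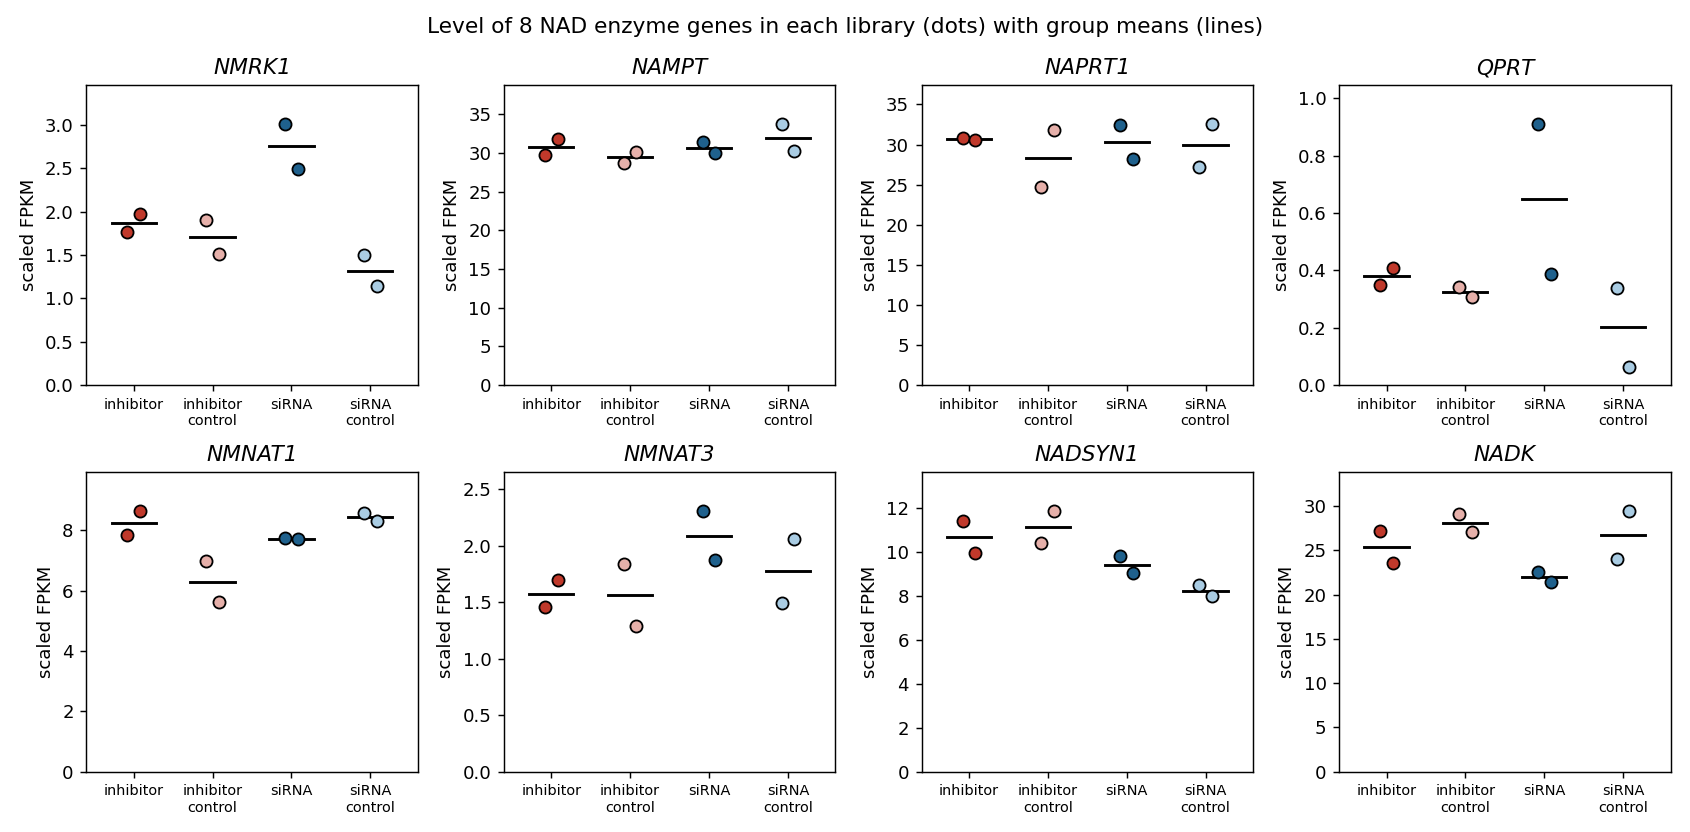
Scaled FPKM (vertical axes, each from 0) of the 8 detected genes in inhibitor, inhibitor control, siRNA and siRNA control cells; dots are libraries and lines are means of 2. NMRK1 is highest in both siRNA libraries, NMNAT1 is lowest in the inhibitor controls, and NADSYN1 is lowest in the siRNA controls.

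NMRK1 (ENSG00000106733, hg19 chromosome 9, 77675489 to 77703133) was highest in siRNA cells. It was at 3.01 and 2.50 scaled FPKM in siRNA cells and at 1.50 and 1.14 scaled FPKM in siRNA control cells. Both siRNA libraries lay above all 6 other libraries, since inhibitor cells had 1.77 and 1.98 and inhibitor control cells 1.91 and 1.51. The means were 2.76 ± 0.36 in siRNA and 1.32 ± 0.26 in siRNA control cells (SD, n = 2 each), a ratio of 2.09 and a log2 difference of 0.70 ± 0.15. This is the comparison from which the gene was chosen, so it carries no test. Under the 16 alternative settings that gave a value the difference lay between 0.58, without siRNA control replicate 2, and 1.01, with a pseudocount of 0.1. The siRNA runs ranged from 1.93 to 3.08 deposited FPKM and the siRNA control runs from 0.753 to 1.76, without overlap. The 4 runs of a group are repeat sequencing of 2 libraries, so they are not 4 separate observations.

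The NMRK1 values rest on few fragments. Taking the deposited Cufflinks intervals as counting error, a run held between 1.98 and 22.2 NMRK1 fragments, with a median of 13.2. Summed over both runs, the siRNA libraries held 36.3 and 16.7 fragments and the siRNA control libraries 40.4 and 6.68. The shallowest library was siRNA control replicate 2, where the first run was 0.753 FPKM with a deposited interval of 0 to 1.82. The siRNA library with more fragments, replicate 1, had runs of 3.08 FPKM (interval 1.65 to 4.52) and 2.83 FPKM (1.49 to 4.17). In siRNA control replicate 1 the runs were 1.76 FPKM (0.985 to 2.53) and 1.27 FPKM (0.700 to 1.84). The first runs of this best covered pair overlap in their intervals, and so do the second runs.

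Set against the main salvage enzyme, NMRK1 stood at 9.60% and 8.35% of the NAMPT level in siRNA libraries and at 4.45% and 3.77% in siRNA control libraries. The share was 5.94% and 6.22% in inhibitor libraries and 6.64% and 5.02% in inhibitor control libraries. Even at its highest, NMRK1 message was thus below 10% of NAMPT message per length.

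With the inhibitor, NMRK1 did not separate from its control. Inhibitor cells had 1.77 and 1.98 scaled FPKM and inhibitor control cells 1.91 and 1.51, so the libraries overlapped. The log2 difference was 0.09 ± 0.15 with a 95% interval of -0.24 to 0.42 (limma adjusted p = 0.677). Whether the effects of the 2 treatments differ was not tested. Inhibitor cells were higher than siRNA control cells in both libraries, by 0.31 ± 0.15, and siRNA control cells were lower than inhibitor control cells in both, by -0.23 ± 0.15. These values use the siRNA controls through which NMRK1 was chosen and carry no test.

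NAMPT (ENSG00000105835, chromosome 7, 105888731 to 105926772) lay between 28.7 and 33.7 scaled FPKM in all 8 libraries. It was at 29.8 and 31.8 scaled FPKM in inhibitor cells and at 28.7 and 30.1 in inhibitor control cells, a log2 difference of 0.06 ± 0.07 with an interval of -0.10 to 0.22 (limma adjusted p = 0.536). It was at 31.4 and 29.9 scaled FPKM in siRNA cells and at 33.7 and 30.2 in siRNA control cells, a log2 difference of -0.06 ± 0.07. The libraries overlapped in both comparisons. A possible near copy, NAMPTL, was listed between 0.802 and 2.32 scaled FPKM, and how reads were split between them was not tested.

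NAPRT1 (ENSG00000147813) showed no separation of the groups, since its inhibitor control libraries alone enclosed every group mean (28.3 to 30.7 scaled FPKM). It was at 30.8 and 30.6 scaled FPKM in inhibitor cells and at 24.7 and 31.8 in inhibitor control cells (log2 difference 0.12 ± 0.12, interval -0.15 to 0.40, limma adjusted p = 0.467). It was at 32.4 and 28.2 scaled FPKM in siRNA cells and at 27.2 and 32.6 in siRNA control cells (log2 difference 0.02 ± 0.12). The groups overlapped in both.

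QPRT (ENSG00000103485, chromosome 16, 29674600 to 29710020, overlapping the gene SPN) was at the edge of detection. It was at 0.349 and 0.410 scaled FPKM in inhibitor cells and at 0.341 and 0.306 in inhibitor control cells. It was at 0.910 and 0.386 in siRNA cells and at 0.338 and 0.0636 in siRNA control cells. Runs held between 0.0282 and 5.46 implied fragments, so the order of these libraries cannot be read as a difference. No test was made for it or for NNMT.

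NMNAT1 (ENSG00000173614, chromosome 1, 10003486 to 10045559), the nuclear adenylyltransferase, was higher with the inhibitor. It was at 7.84 and 8.64 scaled FPKM in inhibitor cells and at 6.96 and 5.63 scaled FPKM in inhibitor control cells, with no overlap. The means were 8.24 ± 0.57 and 6.30 ± 0.94 (SD, n = 2 each), a ratio of 1.31 and a log2 difference of 0.34 ± 0.10 with an interval of 0.11 to 0.58 (limma adjusted p = 0.0299). Among the 7 tested members 1, NMNAT1, passed in this comparison, where 36.5% of all tested genes passed. The call held under 11 of 17 alternatives. It was lost with no filter (adjusted p = 0.101), with FPKM as deposited (adjusted p = 0.0880) and in the first run alone, where the difference was 0.17 (adjusted p = 0.435). Leaving out a library ended it in 3 cases. The adjusted p was 0.0595 without inhibitor replicate 1, 0.175 without inhibitor replicate 2 and 0.191 without inhibitor control replicate 2, where the difference was 0.21.

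NMNAT1 was lowest of all 8 libraries in the inhibitor controls. Inhibitor cells did not separate from siRNA control cells, which had 8.57 and 8.30 scaled FPKM (log2 difference -0.03 ± 0.10, interval -0.27 to 0.20, limma adjusted p = 0.929). The siRNA control cells were higher than the inhibitor control cells by 0.38 ± 0.10 (limma adjusted p = 0.0200). That call held under 11 of 17 alternatives. It was lost without inhibitor control replicate 2 (0.25, adjusted p = 0.133), siRNA control replicate 1 (adjusted p = 0.0807) or siRNA control replicate 2 (adjusted p = 0.0552), with no filter, with FPKM as deposited, and in the first run alone (0.17, adjusted p = 0.404). Both comparisons of this gene that passed share the inhibitor controls, the libraries that stood apart from the rest. In siRNA cells NMNAT1 was at 7.73 and 7.69 scaled FPKM, below both siRNA control libraries, a log2 difference of -0.11 ± 0.10.

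NMNAT3 (ENSG00000163864, chromosome 3, 139279022 to 139396859), the mitochondrial form, was low and scattered. It was at 1.46 and 1.69 scaled FPKM in inhibitor cells and at 1.84 and 1.29 in inhibitor control cells (log2 difference 0.01 ± 0.17, interval -0.36 to 0.39, limma adjusted p = 0.956). It was at 2.31 and 1.87 in siRNA cells and at 1.49 and 2.05 in siRNA control cells (log2 difference 0.16 ± 0.17). The libraries overlapped in both. Its locus overlaps the antisense gene RP11-319G6.1, which averaged 2.43 scaled FPKM. The sources used here do not say whether counting used the strand. How reads were split between the 2 genes in the stretch that their loci share was not tested.

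NADSYN1 (ENSG00000172890, chromosome 11, 71164155 to 71235153), the amidating enzyme, separated the control groups. It was at 8.50 and 7.98 scaled FPKM in siRNA control cells and at 10.4 and 11.9 scaled FPKM in inhibitor control cells. The log2 difference was -0.39 ± 0.10 with an interval of -0.62 to -0.17 (limma adjusted p = 0.0127), and both siRNA control libraries were the lowest of the 8. These values sum the locus above and a short entry within it, 71214591 to 71215524. The short entry ran from 0 to 0.166 deposited FPKM in siRNA control runs and from 0.445 to 0.847 in inhibitor control runs. The main entry alone ran from 7.05 to 8.74 in siRNA control runs and from 9.60 to 12.05 in inhibitor control runs. The NADSYN1 call held under 13 of 17 alternatives. It was lost with no filter, in the first run alone, without inhibitor control replicate 2 and without siRNA control replicate 2. The difference was -0.480 to -0.307 leaving out a library.

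In inhibitor cells NADSYN1 did not pass against its own control. Inhibitor cells had 11.4 and 9.95 scaled FPKM, a log2 difference of -0.06 ± 0.10 from inhibitor control cells (interval -0.28 to 0.17, limma adjusted p = 0.682). Inhibitor cells were higher than siRNA control cells in both libraries, by 0.34 ± 0.10, which did not pass (limma adjusted p = 0.248). In siRNA cells it was at 9.81 and 9.04 scaled FPKM, above both siRNA control libraries, a log2 difference of 0.17 ± 0.10.

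NADK (ENSG00000008130, chromosome 1, 1682671 to 1711896), which makes NADP, ran lowest in the siRNA cells. It was at 22.5 and 21.4 scaled FPKM in siRNA cells and at 24.0 and 29.5 scaled FPKM in siRNA control cells, with no overlap and a log2 difference of -0.27 ± 0.10. The size rested on the spread of the controls, since it was -0.41 with siRNA control replicate 1 left out and -0.12 with replicate 2 left out. It was at 27.2 and 23.6 scaled FPKM in inhibitor cells and at 29.1 and 27.1 scaled FPKM in inhibitor control cells (log2 difference -0.14 ± 0.10, interval -0.38 to 0.09, limma adjusted p = 0.306), where the libraries overlapped.

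Over the family, NMRK1 is left out of the counts in comparisons that use the siRNA controls, through which it was chosen. Of the other 6 tested members, 0 passed by limma with the siRNA, where 2.13% of all tested genes did. Nothing is read from that count. Between siRNA control and inhibitor control cells, 2 of the 6 passed, NMNAT1 higher and NADSYN1 lower, against 38.3% of all tested genes. Between inhibitor and siRNA control cells, 0 of the 6 passed by limma, where 0.0389% of all tested genes did. Of the 6, 1 had an unadjusted p under 0.05, where 12.4% did. The median log2 difference of the 7 genes was 0.06 between inhibitor and inhibitor control cells and 0.02 between siRNA and siRNA control cells, and that of all tested genes was 0.01 and -0.01. In each comparison the members' share is to be read against these backgrounds, and with 6 or 7 genes it is coarse.

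**Figure D2:**
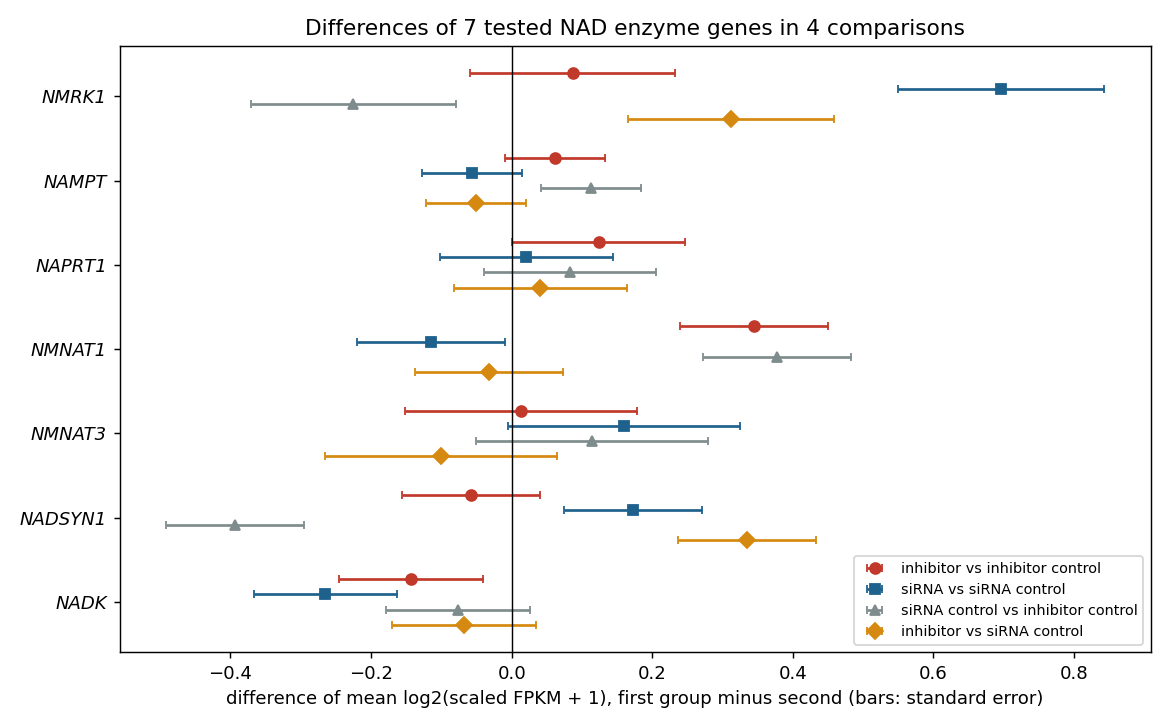
Difference of mean log2(scaled FPKM + 1) (horizontal axis, first group minus second, bars are standard errors) for the 7 tested genes in 4 comparisons. NMRK1 stands at 0.70 for siRNA against siRNA control, and NMNAT1 at 0.34 and 0.38 in the 2 comparisons that use the inhibitor controls.

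Of the 3 expressed neighbours of NMRK1, 0 passed with the siRNA by limma, where 2.13% of all tested genes did, and 0 had an unadjusted p under 0.05, where 20.8% did. OSTF1, which codes for an SH3-domain protein, starts 325 bases beyond the NMRK1 locus on the opposite strand (strands from GENCODE 29). It was at 8.70 and 9.12 scaled FPKM in siRNA cells and at 7.94 and 7.93 scaled FPKM in siRNA control cells. Both siRNA libraries were higher, yet the log2 difference of 0.15 ± 0.08 did not pass (interval -0.03 to 0.33, limma adjusted p = 0.336). On the other side, 32149 bases away, C9orf41 was at 14.0 and 11.8 scaled FPKM in siRNA cells and at 14.7 and 14.6 in siRNA control cells, a log2 difference of -0.18 ± 0.09 (limma adjusted p = 0.313). C9orf40, 107686 bases away, differed by -0.01 ± 0.12 with the siRNA (limma adjusted p = 0.973). With the inhibitor, 0 of the 3 neighbours passed by limma, where 36.5% of all tested genes did. The limma adjusted p was 0.586 for OSTF1, 0.203 for C9orf41 and 0.0905 for C9orf40. Of the 3, 1 had an unadjusted p under 0.05, where 46% of all tested genes did. No gene of the files overlaps the NMRK1 locus, and the window searched was 200 kb to each side.

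**Figure D3:**
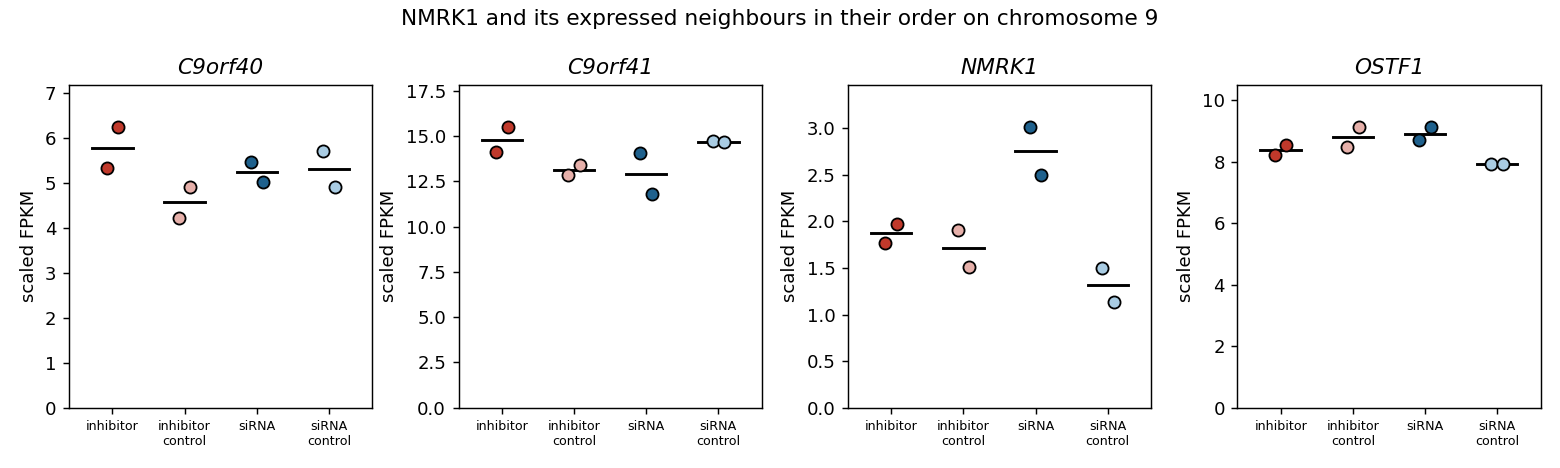
Scaled FPKM (vertical axes from 0) of NMRK1 and the 3 neighbours with a mean of at least 1, in inhibitor, inhibitor control, siRNA and siRNA control libraries (dots, with means as lines). In siRNA cells NMRK1 averaged 2.76 against 1.32 in siRNA control cells, while OSTF1 averaged 8.91 against 7.93.

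The genes most like NMRK1 in their course over the 8 libraries were not members of the family. Only 6 other members were among the 12845 genes ranked, so this was near certain beforehand and is no result. By Pearson correlation of log2(scaled FPKM + 1), a description over libraries that share groups and depth, the 5 closest were TSTD1 (r = 0.988, Spearman rho = 0.976), TAF1D (r = 0.972, rho = 0.952), PPM1N (r = 0.948, rho = 0.857), CPE (r = 0.943, rho = 0.881) and B4GALT6 (r = 0.940, rho = 0.881). Without the 2 libraries farthest from the NMRK1 median, siRNA replicate 1 and siRNA control replicate 2, r was 0.972, 0.911, 0.874, 0.891 and 0.922 in that order. The 5 genes were still those picked on all 8 libraries.
TSTD1 stood at 43.5 and 39.9 scaled FPKM in siRNA cells and at 32.0 and 27.6 in siRNA control cells. TAF1D, a subunit of the factor that starts ribosomal RNA transcription, stood at 92.3 and 87.6 in siRNA cells and at 79.7 and 72.9 in siRNA control cells. CPE, carboxypeptidase E, which trims peptide hormone precursors, stood at 21.3 and 19.7 in siRNA cells and at 13.9 and 12.5 in siRNA control cells. In all 3 both siRNA libraries were the highest of the 8, as they were for NMRK1. These genes were picked for their likeness to NMRK1 over the same 8 libraries. The shared peak is therefore built into the choice and is no separate result. Within the family, NMNAT3 was closest at r = 0.476 (rho = 0.405) and NADK was the most opposed at r = -0.726 (rho = -0.738), which is place 12464 of 12845 genes. The other 4 tested members lay between -0.057 and 0.175. Without the same 2 libraries, r was 0.838 for NMNAT3 and -0.536 for NADK.

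**Figure D4:**
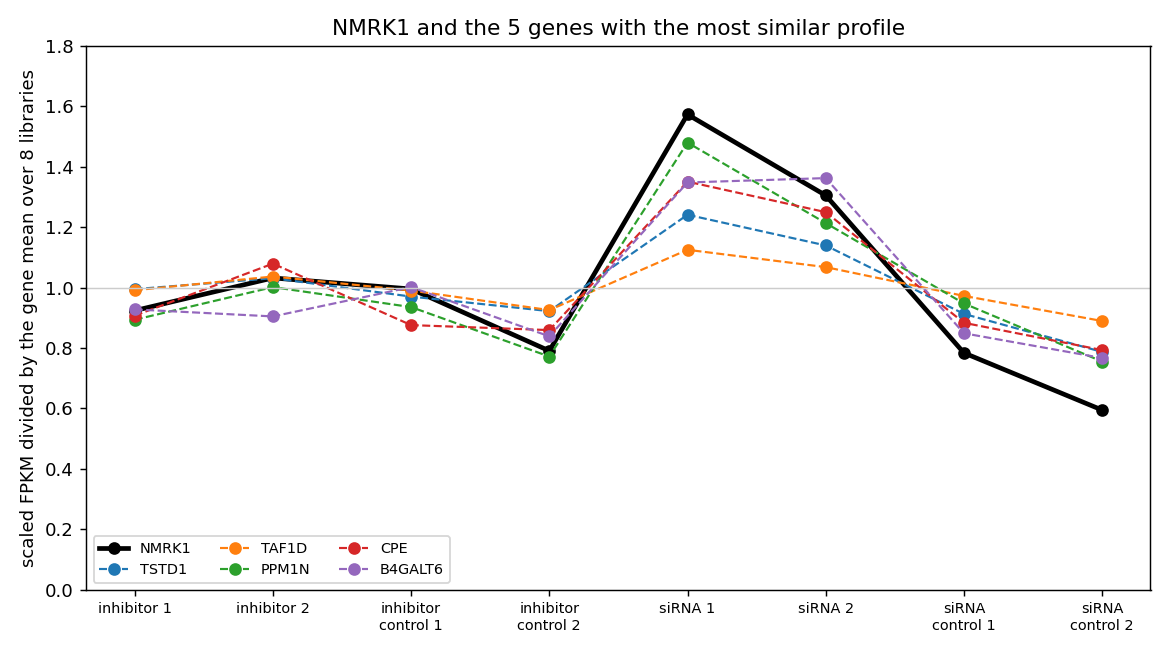
Scaled FPKM divided by the mean of each gene over the 8 libraries (vertical axis) for NMRK1 and the 5 genes with the highest correlation to it, by library (horizontal axis). All 6 are highest in the 2 siRNA libraries, and TSTD1 follows NMRK1 most closely at r = 0.988. The 5 genes were picked for their likeness to NMRK1 over these same libraries, so the shared peak is built into the choice.

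The wider NAD network was counted over 4 lists that hold none of the 9 genes and 67 genes in all, of which 47 were tested. Between siRNA and siRNA control cells, 1 of the 47 passed, which is 2.13% of them and the same share as among all tested genes, while 7 had an unadjusted p under 0.05, as did 20.8% of all tested genes. Between inhibitor and inhibitor control cells, 20 passed, 10 higher and 10 lower, which is 42.6% against 36.5% of all tested genes. Between siRNA control and inhibitor control cells, 18 passed, 7 higher and 11 lower, which is 38.3% and also the share of all tested genes. Between inhibitor and siRNA control cells, 0 passed by limma, where 0.0389% of all tested genes did, and 8 had an unadjusted p under 0.05, as did 12.4% of all tested genes. In each comparison the lists' shares lay near those of all tested genes, so the counts are no result about the network. The median log2 difference of the 47 was 0.02 with the siRNA and 0.09 with the inhibitor.

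The 1 gene of these lists that changed with the siRNA was SLC29A1, the equilibrative nucleoside transporter ENT1, which carries nucleosides, nicotinamide riboside among them, across membranes. It was at 13.4 and 16.5 scaled FPKM in siRNA cells and at 22.9 and 25.4 scaled FPKM in siRNA control cells, with no overlap. The ratio of means was 0.620 and the log2 difference -0.66 ± 0.10 (limma adjusted p = 0.0238). The call was lost without siRNA replicate 1 (-0.52, adjusted p = 0.101) and without siRNA control replicate 2 (-0.59, adjusted p = 0.176), with no filter (adjusted p = 0.150) and in the first run alone (adjusted p = 0.0851). SLC29A1 was also lower in inhibitor cells, at 22.8 and 22.1 scaled FPKM, than in inhibitor control cells, at 47.6 and 43.9 scaled FPKM, a log2 difference of -0.99 ± 0.10 (limma adjusted p = 0.000162). Inhibitor cells did not separate from siRNA control cells in this gene (log2 difference -0.10 ± 0.10, limma adjusted p = 0.726).

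Of 13 tested genes for NAD salvage, transport and repair, 5 rose and 1, SLC29A1, fell with the inhibitor, which is 46.2% against 36.5% of all tested genes. The 5 that rose include SLC25A32, which is a mitochondrial folate and flavin carrier although the list holds it. SLC25A32 averaged 44.0 ± 1.2 in inhibitor and 29.2 ± 1.0 scaled FPKM in inhibitor control cells (limma adjusted p = 0.000649). PNP, which splits nicotinamide riboside to nicotinamide, averaged 81.3 ± 3.5 in inhibitor and 63.3 ± 3.3 in inhibitor control cells (limma adjusted p = 0.00242). NUDT12, a peroxisomal enzyme that cleaves NADH, averaged 11.3 ± 0.9 in inhibitor and 7.72 ± 0.18 in inhibitor control cells (limma adjusted p = 0.00518), a call lost without inhibitor replicate 2 (adjusted p = 0.0501). With the siRNA, NUDT12 had 13.6 and 11.3 scaled FPKM in siRNA cells and 9.35 and 8.95 in siRNA control cells, which did not pass (log2 difference 0.40 ± 0.10, limma adjusted p = 0.0707). Between siRNA control and inhibitor control cells 3 of the 13 rose and 1 fell, which is 30.8% against 38.3% of all tested genes. The log2 differences were 0.51 ± 0.08 for SLC25A32, 0.37 ± 0.06 for PNP, 0.37 ± 0.06 for APOA1BP, a repair enzyme for damaged NADH, and -0.90 ± 0.10 for SLC29A1 (limma adjusted p = 0.00107, 0.00190, 0.00127 and 0.000234). With FPKM as deposited, PNP was 0.24 (adjusted p = 0.148) and APOA1BP 0.23 (adjusted p = 0.145), so both lost the call. NMRK2, the muscle relative of NMRK1, reached at most 0.0608 scaled FPKM, and NNT, the mitochondrial transhydrogenase, at most 0.0106.

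The route from tryptophan to quinolinate was mostly silent, with 4 of 11 genes tested. IDO1 was listed at 0 in every library, and KMO, KYNU and HAAO stayed at or below 0.113 scaled FPKM. Of the 4 tested genes, 1 rose and 1 fell with the inhibitor, which is 50% against 36.5% of all tested genes. AFMID, which hydrolyses formylkynurenine, was at 21.8 and 25.3 scaled FPKM in inhibitor cells and at 32.0 and 31.7 scaled FPKM in inhibitor control cells (log2 difference -0.42 ± 0.09, limma adjusted p = 0.00723). That call held under 14 of 17 alternatives. The losses include leaving out inhibitor replicate 1 (-0.32), and the difference was -0.17 in the first run alone. AFMID was also lower in both siRNA libraries, at 25.1 and 22.3, than in siRNA control libraries, at 29.6 and 33.8, which did not pass (-0.40 ± 0.09, limma adjusted p = 0.0612). CCBL2, a kynurenine aminotransferase, averaged 9.26 ± 0.28 in inhibitor and 6.65 ± 0.40 scaled FPKM in inhibitor control cells (limma adjusted p = 0.0222). The CCBL2 call held under 11 of 17 alternatives. The losses include leaving out inhibitor replicate 1, inhibitor replicate 2 or inhibitor control replicate 1. The CCBL2 difference was 0.371 to 0.478 leaving out a library. Between siRNA control and inhibitor control cells 1 of the 4 passed, which is 25% against 38.3% of all tested genes. It was AADAT, at -0.45 ± 0.15 (limma adjusted p = 0.0379). The AADAT call held under 9 of the 16 alternatives that gave a value. The losses include leaving out inhibitor control replicate 1, inhibitor control replicate 2 or siRNA control replicate 2. The AADAT difference was -0.579 to -0.325 leaving out a library.

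Of 22 tested NAD-consuming enzymes, 4 rose and 5 fell with the inhibitor, which is 40.9% against 36.5% of all tested genes. PARP1, the chief poly(ADP-ribose) polymerase of DNA repair, was at 30.4 and 31.0 scaled FPKM in inhibitor cells and at 52.6 and 54.4 scaled FPKM in inhibitor control cells (log2 difference -0.78 ± 0.06, limma adjusted p = 3.28e-05). PARP2, its closest relative, was at 13.9 and 15.3 in inhibitor cells and at 26.1 and 28.4 in inhibitor control cells (-0.86 ± 0.07, limma adjusted p = 8.64e-05). TNKS2, a tankyrase, and SIRT3, the mitochondrial deacetylase, fell by 0.59 ± 0.11 and 0.67 ± 0.14 on the log2 scale (limma adjusted p = 0.00385 and 0.00543). These genes set the inhibitor controls apart from the other control group as well. Between siRNA control and inhibitor control cells, 3 rose and 6 fell, again 40.9% against 38.3% of all tested genes, among them PARP1 by 0.86 ± 0.06, PARP2 by 0.76 ± 0.07, SIRT7 by 0.50 ± 0.09 and TNKS2 by 0.58 ± 0.11 (limma adjusted p = 2.03e-05, 0.000146, 0.00293 and 0.00369). With the siRNA, 0 of the 22 passed by limma and 2 had an unadjusted p under 0.05, where 2.13% and 20.8% of all tested genes did. Those were PARP1, at 24.7 and 25.9 scaled FPKM in siRNA cells and 28.9 and 29.3 in siRNA control cells, and PARP2, at 12.7 and 12.5 in siRNA cells and 15.5 and 15.9 in siRNA control cells (limma adjusted p = 0.0981 and 0.0721).

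NNMT uses S-adenosylmethionine, so the genes of the methyl donor cycle were counted beside it. Of 8 tested, 3 fell with the inhibitor and 0 rose, which is 37.5% against 36.5% of all tested genes. MAT2A, which makes S-adenosylmethionine, was at 21.3 and 22.6 scaled FPKM in inhibitor cells and at 62.7 and 57.7 scaled FPKM in inhibitor control cells (log2 difference -1.42 ± 0.09, limma adjusted p = 2.22e-05). AHCYL1 and AHCY, a relative of S-adenosylhomocysteine hydrolase and that enzyme itself, fell by 0.95 ± 0.08 and 0.36 ± 0.05 on the log2 scale (limma adjusted p = 6.19e-05 and 0.000609). All 3 genes were also lower in siRNA control cells than in inhibitor control cells. MAT2A was at 20.2 and 24.1 scaled FPKM in siRNA control cells and fell by 1.41 on the log2 scale, and AHCYL1 and AHCY fell by 0.91 and 0.26 (limma adjusted p = 2.03e-05, 7.51e-05 and 0.00262). MTRR was higher by 0.40 ± 0.12 there (limma adjusted p = 0.0259), a call that held under 10 of 17 alternatives. The losses include leaving out inhibitor control replicate 1, inhibitor control replicate 2 or siRNA control replicate 2. The MTRR difference was 0.200 to 0.602 leaving out a library. With the siRNA, 0 of the 8 passed by limma and 1 had an unadjusted p under 0.05, against the same 2.13% and 20.8%. Between inhibitor and siRNA control cells, MAT2A differed by -0.01 ± 0.09 (limma adjusted p = 0.980).

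The 2 comparisons with the inhibitor controls share those libraries, so their values for these lists are not independent of each other. How the standing apart of the inhibitor controls bears on the inhibitor differences was not tested.

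**Figure D5:**
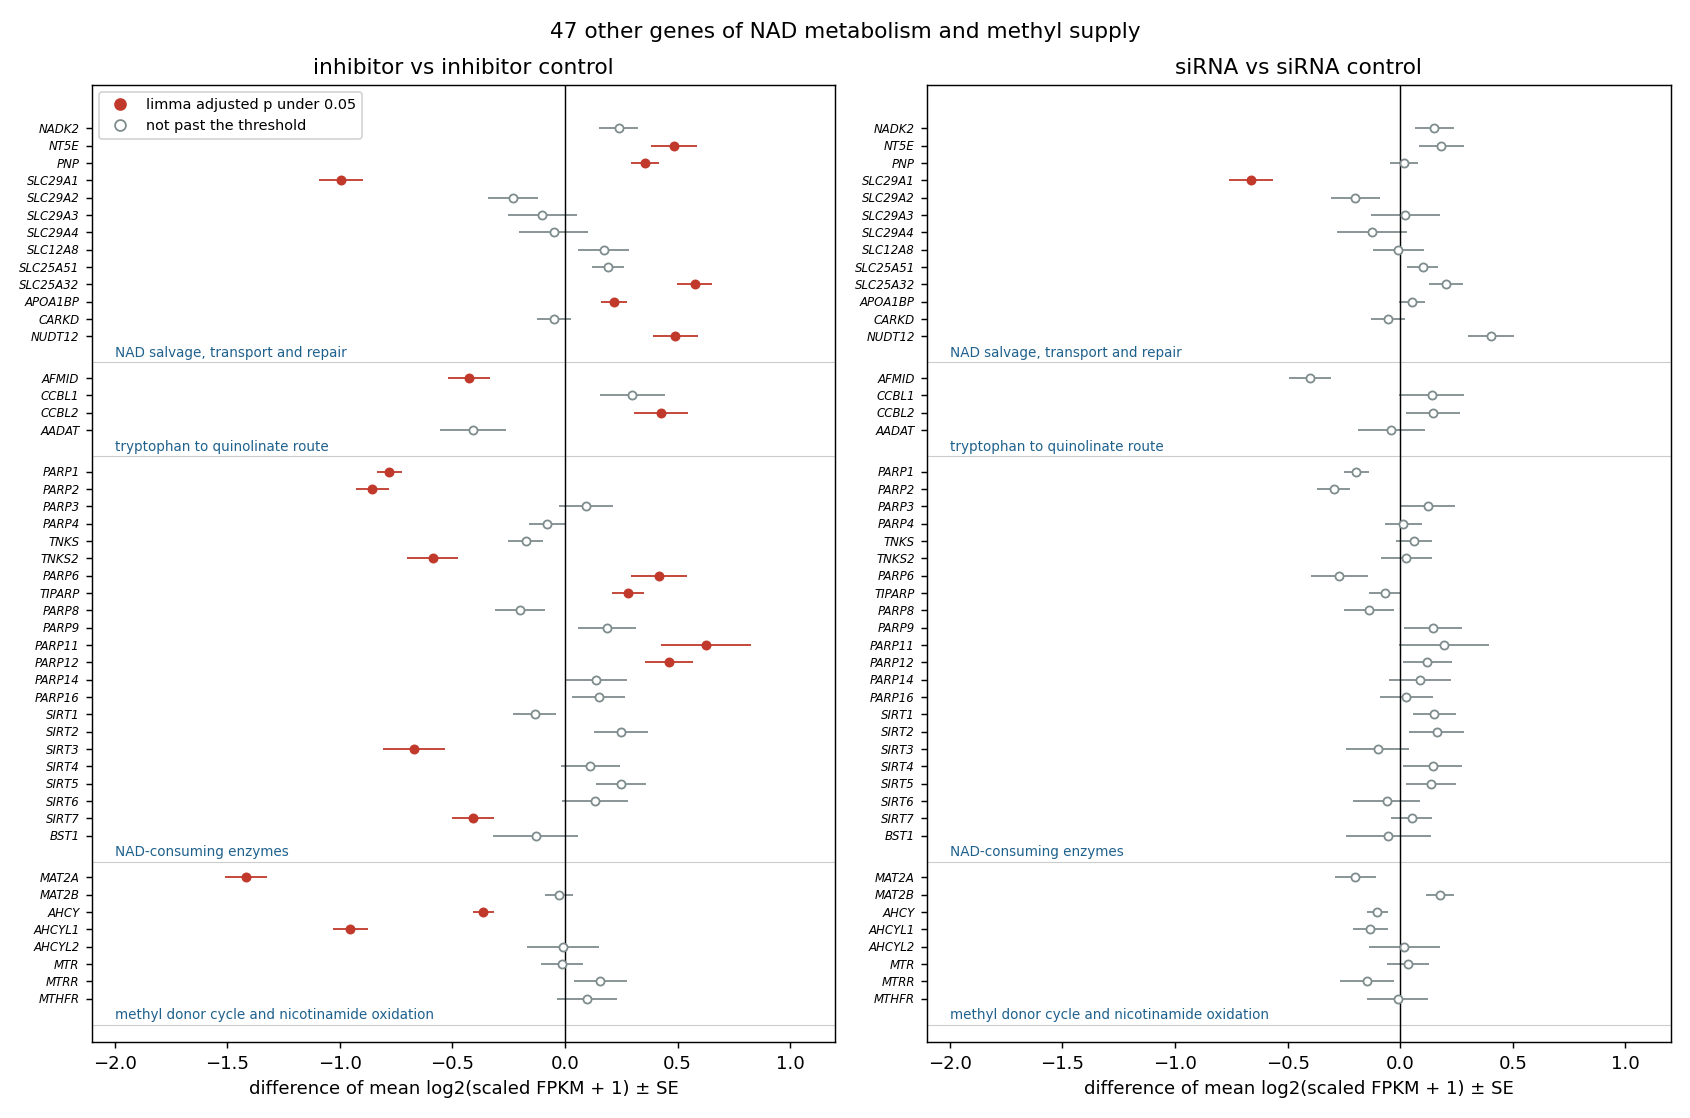
Difference of mean log2(scaled FPKM + 1) with standard errors (horizontal axes) for the 47 tested genes of the 4 lists, inhibitor against inhibitor control on the left and siRNA against siRNA control on the right. Filled dots passed the limma threshold, 20 on the left and SLC29A1 alone on the right.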

How the data were processed

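Total RNA of 8 HCT116 libraries (4 groups of 2) was sequenced in 2 runs each on a HiSeq-2000 after a stranded total RNA kit, per the labels' protocols. The authors deposited gene-level FPKM with confidence intervals for each run. The submitters' processing notes name STAR 2.3.0e, SAMtools 0.1.19, Cufflinks and build hg19. No version of Cufflinks, annotation release or strand setting is given there. FPKM keeps no counts: fragments were estimated from the upper interval bound, taken as 2 standard errors of counting error, and came to 1919000 to 6526000 in a run, over genes above 5 FPKM.

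Of the numbers in the labels, 1 was taken to mark the library and the other the run. The runs of a library were averaged and the 131 entries that repeat an identifier were summed. MT-RNR2, which Cufflinks marked as unreliable in all 16 runs, was left out. The 12846 genes that averaged 1 FPKM or more over a locus of 300 bases or more were tested with limma 3.58.1 in R 4.3.3 on log2(scaled FPKM + 1), two-sided, with a mean-variance trend, no replicate block and a threshold of 0.05. Scaling factors ranged from 0.878 to 1.09. The procedure was tested on simulated data.

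The members and the gene lists were chosen with earlier results of these data known. The text names all 9 members, EHMT2, up to 4 called genes with the smallest p per list and comparison, neighbours of NMRK1 within 200 kb with a mean of at least 1, and the 5 genes most like NMRK1. NNMT, QPRT and some silent list genes are named for their low level, and HNRNPA2B1 for standing apart in 1 group. Alternatives were a pseudocount of 0.1, no filter, a mean of at least 5 FPKM, FPKM as deposited, quantile normalization, a replicate block, each run alone, robust empirical Bayes and leaving out each library.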

Additional observations from a re-analysis of the deposited data

Results flagged for a closer look

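NMNAT1 lay on opposite sides of the controls in the 2 treatments. Both inhibitor libraries lay above both inhibitor control libraries and both siRNA libraries lay below both siRNA control libraries, and the inhibitor effect minus the siRNA effect was 0.46 on the log2 scale. This difference between the effects was not tested. The siRNA effect, -0.11 ± 0.10, is near its standard error, and NMNAT1 in inhibitor cells did not separate from siRNA control cells.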

How the results depend on the processing

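The values of the 7 tested members and of the named list genes were recomputed under 17 alternatives, which gave 923 values. Of the 774 with a test, 699 kept their direction and their side of the threshold, 47 lost a call and 28 changed sign. Of the 149 given with no test, 143 kept their sign and 6 changed it. The filter at 5 FPKM gave no value for NMRK1 or NMNAT3. The cause was not tested for any value below. Genes called between inhibitor and inhibitor control cells (4686) came to 2986 with no filter, 3112 with FPKM as deposited, 3117 in the first run alone and 2673 to 4775 leaving out a library, and the 1 member called, NMNAT1, to 0 in each of the first 3 and 0 to 1 leaving out a library. The 20 list genes called came to 13 to 20 leaving out a library. Genes called between siRNA and siRNA control cells (273) came to 5 with no filter, 554 at 5 FPKM, 134 with FPKM as deposited, 68 with the replicate block, 31 in the first run, 45 in the second and 9 to 423 leaving out a library. No count of members is given for this comparison, from which NMRK1 was chosen. The 1 list gene called came to 0 with no filter and in the first run, 4 at 5 FPKM and 0 to 1 leaving out a library. Genes called between siRNA control and inhibitor control cells (4916) came to 3236 with no filter and 3212 in the first run, and the 2 members called to 0 with no filter and in the first run, 1 with FPKM as deposited and 0 to 2 leaving out a library. Genes called between inhibitor and siRNA control cells (5) came to 0 with no filter, 23 at 5 FPKM, 32 with FPKM as deposited, 1 in the first run, 2 in the second, 11 with robust empirical Bayes and 0 to 43 leaving out a library.

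Some differences changed sign. Between inhibitor and inhibitor control cells, NMRK1 was -0.030 in the first run (-0.018 to 0.191 leaving out a library), NMNAT3 -0.026 in the second run (-0.142 to 0.169), NADSYN1 0.008 with quantile normalization (-0.148 to 0.032), and NAPRT1 ranged from -0.052 to 0.300 leaving out a library. Between siRNA control and inhibitor control cells, with FPKM as deposited NAMPT was -0.019 and NAPRT1 -0.048 (-0.093 to 0.259 leaving out a library), NMNAT3 was -0.163 in the second run (-0.042 to 0.269), and NADK ranged from -0.218 to 0.067 leaving out a library. Between siRNA and siRNA control cells, given with no test, NAMPT was 0.022 without siRNA control replicate 1 (-0.133 to 0.022 leaving out a library), NAPRT1 was -0.034 with FPKM as deposited and -0.037 in the second run (-0.103 to 0.146), and NMNAT3 was -0.080 in the first run and 0.440 in the second. Between inhibitor and siRNA control cells, with FPKM as deposited NAMPT was 0.066 (-0.129 to 0.026 leaving out a library), NMNAT1 0.076 (-0.094 to 0.031) and NADK 0.049 (-0.210 to 0.074), and in the second run NAPRT1 was -0.027 (-0.083 to 0.165) and NMNAT3 0.137 (-0.247 to 0.048).

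The groups share replicate numbers, but nothing says that equal numbers mark a shared batch. Deviations of same-numbered libraries from their group means correlated at -0.10 to 0.05 over the 6 pairs of groups. With the replicate number as a block, 4385 genes passed between inhibitor and inhibitor control cells and 68 between siRNA and siRNA control cells. Depth limits NMRK1, NMNAT3 and QPRT most.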
